A study of Mus musculus with 41 samples.

Results

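The 10 genes described here encode 4 of the DNA-binding subunits of NF-κB (Nfkb1, Nfkb2, Rel and Relb) and 6 of its feedback genes (Nfkbia, Nfkbid, Nfkbiz, Bcl3, Tnfaip3 and Birc3). They were chosen by name, and all 10 were found, among 23420 genes in the bulk RNA-seq table and among 19221 genes in the single-cell matrix. The series measured immune cells of the mouse small intestine in 41 samples from female BALB/cJ mice. It asked how these cells differ in food allergy and how group 2 innate lymphoid cells (ILC2s), lymphocytes without antigen receptors that make type 2 cytokines, respond to the cytokine IL-25 and to the neuropeptide α-CGRP.

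The bulk samples were 13 libraries, each from 250 sorted KLRG1+ ILC2s of 8-week-old mice. All cultures lasted 3 h in medium with IL-7 and IL-2, each at 100 ng/ml. They received nothing more (base medium, 3 libraries), IL-25 at 100 ng/ml (3 libraries), α-CGRP at 0.4 µg/ml (4 libraries) or both (3 libraries). The single-cell samples came from 10-week-old mice that were untreated wild-type controls or had food allergy induced with ovalbumin. From the lamina propria (LP), the connective tissue under the gut epithelium, there were 3 control and 3 allergy libraries labelled nonTB, and 1 of each labelled IgDLow; the labels do not define either term. From Peyer's patches (PP), the lymphoid follicles of the gut wall, 10 control and 9 allergy libraries held cells. These PP libraries carried 5 run dates. Titles of dates 1 and 2 hold the word location and end in D, I or J, letters the titles do not define. On date 1, cells came from allergy libraries I and J but control libraries D, I and J. Whether libraries of 1 group stem from different animals is not stated in the labels. The p-values therefore cover only spread between libraries, or between run dates where PP libraries were summed by date. Part of that spread may be technical.

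NF-κB factors are dimers of Rel-domain proteins. In resting cells, IκB proteins such as IκBα, encoded by Nfkbia, hold them in the cytoplasm. Signals from TNF-family, interleukin-1-family, interleukin-17-family and antigen receptors lead to breakdown of IκBα, and dimers built around p50 (from Nfkb1), RelA or c-Rel (from Rel) then enter the nucleus, which is called the canonical pathway. The alternative pathway runs through the kinase NIK and turns the Nfkb2 product p100 into p52, which pairs with RelB. Several inhibitors are themselves NF-κB targets and so form feedback: Nfkbia, the deubiquitinating and ubiquitin-editing enzyme A20 (Tnfaip3) and the ubiquitin ligase cIAP2 (Birc3). Nfkbid, Nfkbiz and Bcl3 encode the atypical, nuclear IκB proteins IκBNS, IκBζ and Bcl-3, which bind p50 or p52 dimers on DNA and either raise or lower transcription of chosen targets.

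In the mm10 build (GENCODE M21 annotation), the members are spread over several chromosomes, with Relb and 2 others on chromosome 7. Among the subunits, Nfkb1 spans chr3:135584655-135691547 on the minus strand, Nfkb2 chr19:46304320-46312385 on the plus strand, Rel chr11:23736847-23770970 on the minus strand and Relb chr7:19606217-19629438 on the minus strand. Among the feedback genes, Nfkbia spans chr12:55489410-55492647, Nfkbiz chr16:55811375-55838899, Bcl3 chr7:19808462-19822770, Tnfaip3 chr10:19000910-19015657 and Birc3 chr9:7848699-7873186, all on the minus strand, and Nfkbid chr7:30421732-30428746 on the plus strand. Relb, Bcl3 and Nfkbid are all on chromosome 7.

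The upstream sequences of members with NF-κB binding motifs are shown because these genes are regarded as targets of the factor they encode or restrain. RefSeq promoters (build GRCm38.p6) were matched by symbol for 7 members. The 250 bases before each annotated start were searched on both strands for the 10-letter κB consensus; the matches are in capitals and overlapping matches run together. Windows of 5 of the 7 matched members held a match (Nfkb2, Rel, Nfkbia, Nfkbid and Tnfaip3), and those of Bcl3 and Birc3 held none. Over all 32851 promoter windows of that length, 3.9% held one, and over the 27025 genes 4.46% had at least 1 such window. Each line below gives 130 bases, written 5′ to 3′ on the gene's own strand. The windows of Tnfaip3, Nfkb2 and Nfkbid precede annotated starts that lie inside the gene spans given above. Windows before the other annotated Nfkbid starts, among them that of its outermost start, held no match.
Nfkbia promoter (chr12:55492648-55492777, minus strand, ending 1 base before the start): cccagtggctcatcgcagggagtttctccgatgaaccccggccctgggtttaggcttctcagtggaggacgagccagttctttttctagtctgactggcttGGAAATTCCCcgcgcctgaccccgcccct
Tnfaip3 promoter (chr10:19015411-19015540, minus strand, ending 1 base before the start): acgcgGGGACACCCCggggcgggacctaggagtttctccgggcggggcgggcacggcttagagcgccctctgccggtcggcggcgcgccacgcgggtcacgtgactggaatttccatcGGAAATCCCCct
Rel promoter (chr11:23770970-23771099, minus strand, ending 1 base before the start): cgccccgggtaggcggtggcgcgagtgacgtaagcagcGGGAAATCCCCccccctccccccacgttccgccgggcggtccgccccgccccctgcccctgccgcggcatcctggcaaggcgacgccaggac
Nfkb2 promoter (chr19:46304607-46304736, plus strand, ending 1 base before the start): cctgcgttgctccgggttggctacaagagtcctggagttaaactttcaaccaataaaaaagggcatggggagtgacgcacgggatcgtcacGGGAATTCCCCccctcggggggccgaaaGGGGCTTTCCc
Nfkbid promoter (chr7:30422156-30422285, plus strand, from 250 to 121 bases before the start): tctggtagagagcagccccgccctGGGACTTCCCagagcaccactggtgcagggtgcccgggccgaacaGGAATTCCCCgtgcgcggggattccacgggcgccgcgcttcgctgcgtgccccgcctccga
A match is a description of these letters and was not tested for binding.

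The bulk libraries held 6942764 to 21551901 expected counts. A ribosomal RNA gene, Rn45s, took 57.5% to 78.7% of them, so levels are given as CPM (counts scaled to a common total) after TMM scaling, which corrects for such composition. Gata3, the ILC2 master regulator, stood at 314 to 847 CPM in them, while the T cell gene Cd3e stood at 0.0842 to 1.2 CPM and the B cell gene Cd79a at 0 to 1.35 CPM. Summed over the markers tested, the 8 ILC2 markers stood at 1316 to 4028 CPM and the 6 T cell markers at 32.8 to 100 CPM. The 4 plasma cell markers summed to 134 to 317 CPM and the 4 B cell markers to 3.74 to 25 CPM. Sums were 34.4 to 87.7 CPM for 2 mast cell, 22.8 to 75.5 CPM for 5 epithelial and 0.44 to 2.5 CPM for 2 macrophage markers. For 3 plasmacytoid dendritic cell markers they were 14.9 to 49.5 CPM. The single-cell data held 58067 cells, of which 30536 (52.6%) fell into one of 20 classes defined by marker genes that include no member. The LP nonTB libraries held 2285 to 2822 cells at a median of 1829 to 3442 UMIs (unique molecular identifiers, which count captured RNA molecules). The PP libraries held 379 to 3891 cells at 2682 to 3975 UMIs. Cell barcodes present in more than 1 library numbered 2180 and made up 7.81% of cells, with at most 64 shared by a pair of libraries. UMIs were summed over the cells of a class in each library and are given as CPM of that sum.

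In control LP, 11 classes held at least 10 cells in each of the 3 nonTB libraries and were ranked. T, B, monocyte, neutrophil, endothelial and epithelial classes were not ranked. Among the 11, ILC2-like cells had the highest level of 5 of the 10 members, and mature dendritic cell (DC)-like cells the highest level of 3. For Nfkb1 and Tnfaip3, the 3 libraries of ILC2-like cells stood above those of every other ranked class. Mature DC-like cells, which are DCs that have upregulated Ccr7 and migrate to lymph nodes, stood above every other ranked class for Relb and Rel. These orders are descriptions without a test.

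Nfkb1, the p50 precursor gene, stood at 842 ± 97.1 CPM (mean ± SD, n = 3 libraries throughout this paragraph) in ILC2-like cells. Mast-like cells followed at 375 ± 95 CPM and ILC3-like cells at 219.5 ± 89.9 CPM, and these overlapped. Rel was highest in mature DC-like cells at 574 ± 96.7 CPM, above macrophage-like cells at 212 ± 64.4 CPM and cDC2-like cells at 209 ± 63.8 CPM, which did not differ beyond their spread. Relb stood at 528 ± 9.56 CPM in mature DC-like cells. The next class for Relb was ILC3-like at 99.2 ± 30.6 CPM. Nfkb2, the partner of Relb in the alternative pathway, was also highest in mature DC-like cells, at 177 ± 60.6 CPM, but its range overlapped that of ILC3-like cells at 129 ± 11.9 CPM.

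Among the feedback genes, Nfkbia had its highest mean in ILC2-like cells (2259 ± 649 CPM, n = 3 libraries here and for each value that follows), though its range overlapped those of mast-like (1643 ± 283 CPM), NK or ILC1-like (1565 ± 727 CPM) and ILC3-like cells (1535 ± 178 CPM). It was low in cDC1-like cells, at 137 ± 66.8 CPM. Nfkbiz stood at 594 ± 73.1 CPM in ILC2-like and 369 ± 73.7 CPM in mast-like cells, without overlap, but cDC2-like cells (351 ± 246 CPM) reached into the ILC2-like range. Tnfaip3 stood at 895 ± 68.5 CPM in ILC2-like cells, against 591 ± 121 CPM in NK or ILC1-like and 560.2 ± 78.0 CPM in ILC3-like cells. Birc3 was highest in ILC2-like cells at 247 ± 64.5 CPM, overlapping ILC3-like cells at 192 ± 45.1 CPM. Nfkbid was at similar levels in mast-like (325 ± 161 CPM), NK or ILC1-like (273 ± 134 CPM), ILC3-like (269 ± 33.2 CPM) and ILC2-like cells (230.4 ± 65.6 CPM), whose ranges overlapped. Mature DC-like cells, next by mean at 80.8 ± 76.4 CPM, overlapped mast-like cells in Nfkbid. Bcl3 was low in every ranked class, with its highest means in pDC-like (83.3 ± 11.2 CPM) and mature DC-like cells (79.0 ± 41.5 CPM).

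**Figure D1:**
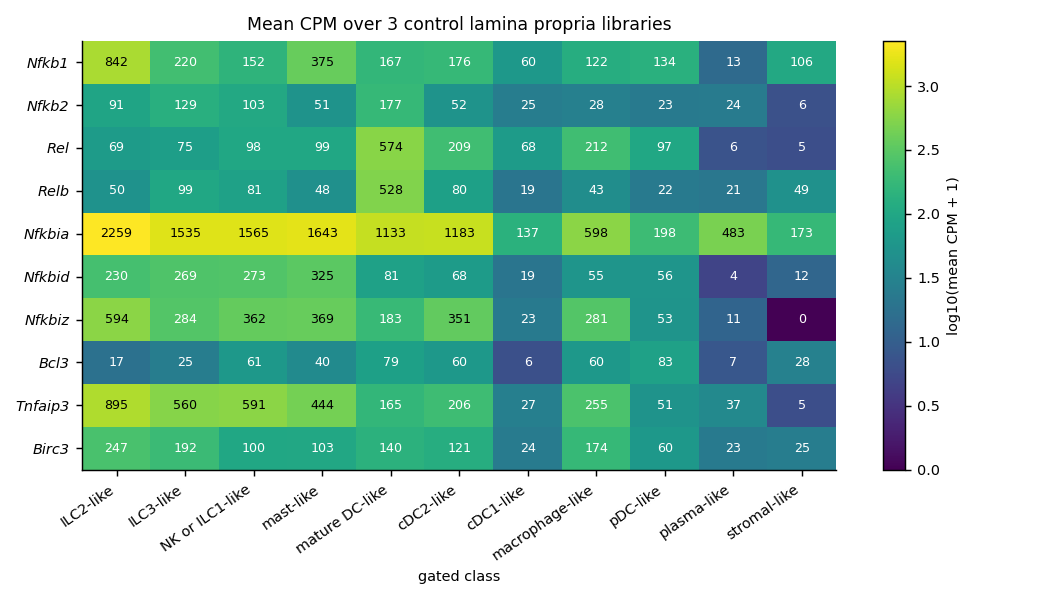
Mean level of each member over the 3 control lamina propria nonTB libraries in the 11 ranked classes, as a heat map with colour for log10 of mean CPM plus 1. Nfkb1, Nfkbiz and Tnfaip3 are highest in the ILC2-like column, Rel and Relb in the mature DC-like column, and Bcl3 is low in every class.

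Control PP was summed by run date, and the 15 classes with at least 10 cells on at least 2 dates were ranked (n = 5 dates for ILC3-like and B-like, 3 for ILC2-like and 2 for mature DC-like cells). Among these, the subunits again had their highest means in ILC2-like or mature DC-like cells. Nfkb1 was highest in ILC2-like cells at 754 ± 231 CPM, clear of ILC3-like cells at 272 ± 93.5 CPM. Relb (705 ± 95.1 CPM) and Nfkb2 (209 ± 76.5 CPM) were highest in mature DC-like cells and clear of the next class. Rel was highest there too, at 353 ± 280.1 CPM, but overlapped B-like cells at 276 ± 180.5 CPM. Nfkbiz (669 ± 207 CPM) and Tnfaip3 (381 ± 216 CPM) again had their highest means in ILC2-like cells, with ranges that overlapped those of other classes. Nfkbia and Birc3 did not. The mean of Nfkbia was highest in endothelial-like cells at 1863 CPM, with ILC2-like cells next at 1839 CPM. That of Birc3 was highest in mature DC-like cells at 190 CPM, with ILC2-like cells next at 147 CPM. The ranges overlapped for both genes. Run dates differed widely: Tnfaip3 in control ILC3-like cells ranged from 55.6 to 594 CPM. Cell content differed too, with 99 to 480 CD4 T-like cells per control library on dates 1 to 3 and 3 to 5 on dates 4 and 5.

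ILC2-like and ILC3-like cells, the latter being the IL-22-producing innate lymphocytes, were compared within the same 6 LP nonTB libraries (808 and 1521 cells). Of the 10 members, 6 were higher in ILC2-like cells and none lower, where 33.8% of 5359 genes differed and 18.5% were higher. The differences were 2.92 ± 0.21 on the log2 scale (± SE, 7.59-fold) for Nfkb1, with an adjusted p of 7e-10, and 2.16 ± 0.22 (4.48-fold) for Nfkbiz, with an adjusted p of 9.84e-08. They were smaller for Nfkbia (1.05 ± 0.11, adjusted p = 7.96e-08), Tnfaip3 (1.03 ± 0.11, adjusted p = 2.89e-07) and Birc3 (0.72 ± 0.14, adjusted p = 0.000385). Rel differed by 1.43 ± 0.35 (adjusted p = 0.00315) over all 6 libraries but by 0.16 (adjusted p = 0.743) over the 3 control libraries. The 6 libraries pool control and allergy. In the 3 control libraries, Nfkb1 averaged 842 CPM in ILC2-like and 220 CPM in ILC3-like cells, and Nfkbiz 594 and 284 CPM. Over the alternative fits, the lowest log2 differences were 2.23 for Nfkb1 and 1.34 for Nfkbiz. Nfkb2 (0.04), Relb (-0.08), Nfkbid (0.48) and Bcl3 (-0.69) did not pass the test. Of 10 genes of RNA quality and handling, 7 were also higher in ILC2-like cells and none lower (median 0.42, against 0.00 over all genes), and their part was not tested.

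In LP ILC2-like cells of allergic mice, Nfkb1, Nfkbiz and Rel rose and Tnfaip3 fell. These were 4 of the 9 members tested, where 17.3% of 3257 genes changed (10.4% rose and 6.97% fell). The remaining 5 tested members did not pass the test, and Bcl3 had too few UMIs to test (0 to 9 per library). DESeq2 called 3 members higher and 1 lower as well.

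Nfkb1 read 766, 808 and 951 CPM in control libraries 1, 2 and 3, and 1379, 1274 and 2060.0 CPM in allergy libraries 1, 2 and 3. Nfkbiz, the gene of the nuclear cofactor IκBζ, read 640.3, 633 and 510.2 CPM in controls and 1117, 1274 and 1105 CPM in allergy. All 3 allergy libraries were above all 3 controls for both genes. Nfkb1 was 2.02-fold higher (log2 1.01 ± 0.11 SE, adjusted p = 2.06e-07) and Nfkbiz 2.16-fold higher (1.11 ± 0.13, adjusted p = 1.98e-07). Rel, the c-Rel gene, read 68.2, 49.4 and 90.3 CPM in controls and 100.5, 100.5 and 294 CPM in allergy, from 11 to 17 UMIs per control library and 25 to 65 per allergy library. Its groups did not overlap, but allergy library 3 stood well above the others. The change in Rel was 2.55-fold (1.35 ± 0.26, adjusted p = 0.000392). It kept its call when any 1 library was left out, and had an adjusted p of 0.105 in a fit without the run date.

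Tnfaip3, which encodes A20, read 855, 974 and 856 CPM in controls and 450.2, 638 and 435 CPM in allergy. Every allergy library was below every control, and the fall was 1.60-fold (-0.68 ± 0.14, adjusted p = 0.00111). Nfkbia, the other classical feedback inhibitor, read 2897, 2280.5 and 1599.7 CPM in controls and 1801, 1863 and 1653 CPM in allergy. Its groups overlapped (-0.19 ± 0.11, adjusted p = 0.266); without allergy library 3 or without control library 3 it passed the test, at -0.34 with adjusted p of 0.00123 and 0.00108. Relb, at 26.2 to 74.4 CPM in controls and 32.2 to 110.2 CPM in allergy, was at 0.92 ± 0.36 (adjusted p = 0.0822), and passed without allergy library 1 (1.24, adjusted p = 0.0156), without allergy library 3 (1.10, adjusted p = 0.0425) or without control library 3 (1.10, adjusted p = 0.0415). Nfkb2 was at 74.4 to 103 CPM in controls and 92.5 to 95.1 CPM in allergy (0.17 ± 0.25, adjusted p = 0.727). Nfkbid (0.02 ± 0.23, adjusted p = 0.961) and Birc3 (-0.37 ± 0.21, adjusted p = 0.25) had overlapping groups.

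The single pair of IgDLow libraries, with 70 control and 83 allergy ILC2-like cells, was not part of that test. Nfkb1 read 1279 CPM (95% Poisson interval 1111 to 1466, counting error only) in the control and 1773 CPM (1600.1 to 1959.5) in the allergy library. Nfkbiz read 559 CPM (449 to 687) and 1131 CPM (994 to 1282), and Tnfaip3 832 CPM (697 to 986) and 536 CPM (443 to 642). These 3 genes differed in the same direction as in the nonTB libraries, although the IgDLow control level of Nfkb1 was above that of nonTB allergy library 2. Rel did not, at 174 CPM (116 to 251) in the control and 129 CPM (85.9 to 187) in the allergy library, with overlapping intervals.

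**Figure D2:**
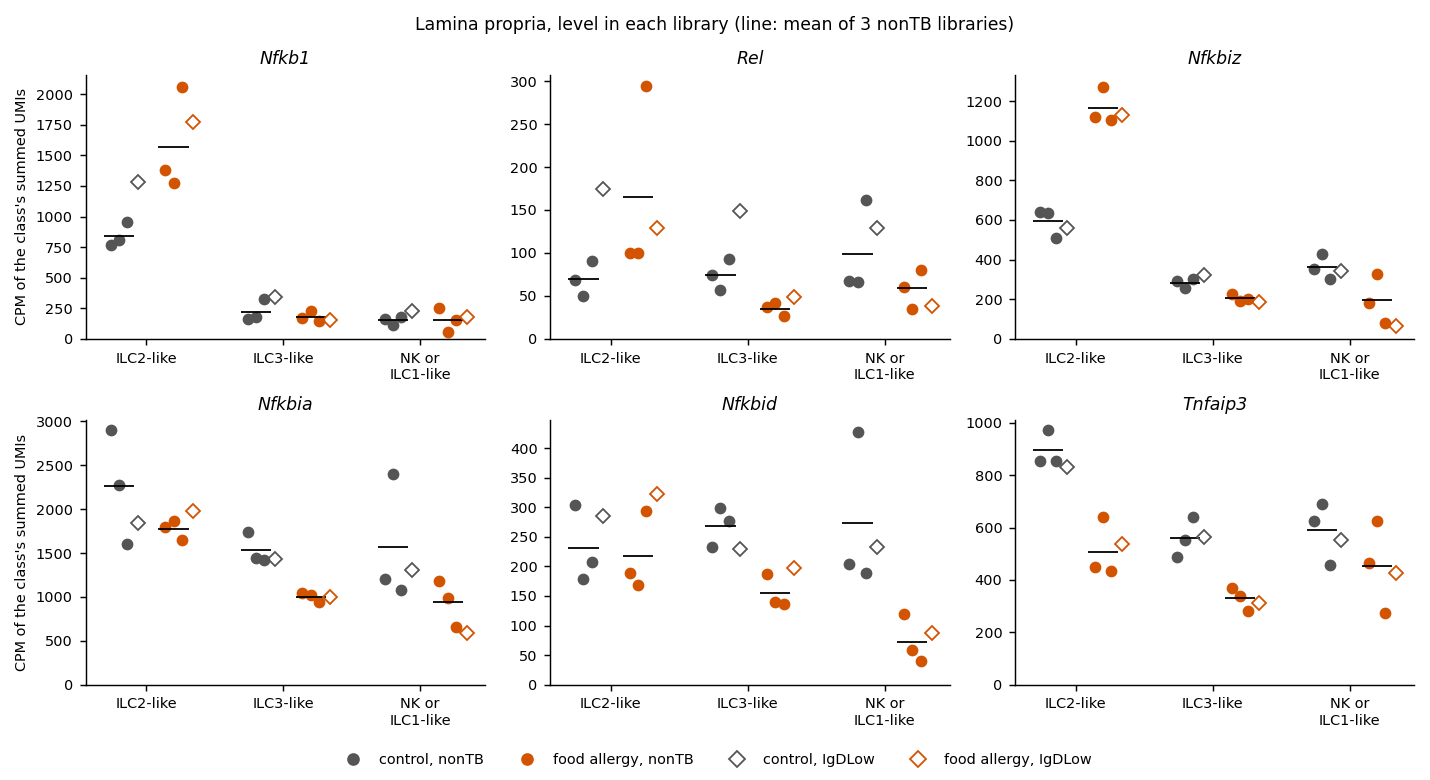
Level of members in each lamina propria library in CPM of the class's summed UMIs, for ILC2-like, ILC3-like and NK or ILC1-like cells, with 1 point per library, colours for control and food allergy, separate symbols for the IgDLow libraries and a line at the mean of the 3 nonTB libraries. Among nonTB libraries, the allergy points lie above the controls for Nfkb1 and Nfkbiz in ILC2-like cells and below them for Tnfaip3 in ILC2-like and ILC3-like cells; the IgDLow control lies at 1279 CPM for Nfkb1, above the lowest nonTB allergy library.

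Other genes moved in the same ILC2-like cells. Of 28 textbook NF-κB target genes, 17 were tested, and 8 rose and 5 fell, with a median log2 change of 0.59 against 0.00 over all genes. Ptgs2, the inducible cyclooxygenase gene, stood at 9.78 ± 4.17 CPM in controls and 70.7 ± 19.9 CPM in allergy (n = 3 each; log2 2.90 ± 0.49). Csf2, which encodes GM-CSF, rose by 2.46 ± 0.37, Cxcl2, a neutrophil chemokine, by 2.50 ± 0.35 and Plaur, the urokinase receptor gene, by 3.16 ± 0.44. Irf1, an interferon-response factor, fell from 214 ± 47.7 to 37.3 ± 22.2 CPM (n = 3 each). Of 9 tested inhibitors outside the 10 members, Zc3h12a, which encodes the RNase Regnase-1, fell from 228 ± 14 to 89.3 ± 16.6 CPM (n = 3 each), Nfkbie, the IκBε gene, fell by 1.80 ± 0.57, and Tax1bp1, which encodes an A20 adaptor, rose by 0.65 ± 0.19. Of 8 kinases and adaptors tested, Traf1 was the 1 that passed (0.59 ± 0.19, adjusted p = 0.0309). Of 5 TNF receptors tested, Tnfrsf9 (4-1BB), Cd27 and Tnfrsf1b (TNFR2) rose.

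Beside these changes, the immediate-early gene Fos was at 2551 to 5302 CPM in control and 1132 to 1387 CPM in allergy ILC2-like sums, and the heat-shock gene Hspa1a at 0 to 8.98 and 68.3 to 380.3 CPM. Of 10 genes of RNA quality and handling, Fos and Hspa1a included, 5 were higher in allergy and 1 lower. Those higher included mt-Co1 (0.38, adjusted p = 2.87e-05), mt-Co3 (0.23, adjusted p = 0.00445), Malat1 (0.20, adjusted p = 0.00545) and Neat1 (0.75, adjusted p = 0.00934). Summed mast cell markers were at 21 to 62.8 CPM in controls, with 7 to 8 of 9 markers at 0, and at 113 to 118 CPM in allergy, with 3 to 5 of 9 at 0. Median depth was 1473 to 2133 UMIs in control and 1463 to 2191 UMIs in allergy ILC2-like cells. The part of these in the changes of the members was not tested.

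ILC3-like cells of the same libraries showed the opposite sign for Rel and no rise in Nfkb1 or Nfkbiz. Nfkbia, Nfkbid, Rel and Tnfaip3 fell, 4 of 10 members tested, where 1.85% of 6311 genes changed and 1.16% fell. No member rose. DESeq2 called 2 members lower.

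Nfkbia read 1740.1, 1447 and 1418 CPM in control ILC3-like cells and 1045, 1026 and 938 CPM in allergy, and fell 1.51-fold (-0.60 ± 0.09, adjusted p = 0.00142). Tnfaip3 read 487, 552 and 642 CPM in controls and 369, 338 and 282 CPM in allergy, and fell 1.70-fold (-0.76 ± 0.13, adjusted p = 0.00445). The groups did not overlap for either gene. Nfkbid, whose product IκBNS binds p50, read 233, 298 and 276 CPM in controls and 188, 140.2 and 137 CPM in allergy (-0.80 ± 0.16, adjusted p = 0.015). Rel read 74.7, 56.4 and 93.3 CPM in controls and 36.9, 41.2 and 27.0 CPM in allergy (-1.13 ± 0.27, adjusted p = 0.0392). The groups were again apart for both. The IgDLow pair (303 and 235 cells) had Nfkbia at 1429 and 996 CPM, Tnfaip3 at 564 and 313 CPM, Nfkbid at 229 and 197 CPM and Rel at 149 and 48.2 CPM in the control and the allergy library. Each was lower in the allergy library.

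Nfkb1 (-0.26 ± 0.23), Nfkbiz (-0.45 ± 0.14, adjusted p = 0.164), Birc3 (-0.50 ± 0.17, adjusted p = 0.218), Bcl3 (-0.79 ± 0.44), Relb (-0.20 ± 0.21) and Nfkb2 (-0.33 ± 0.25) did not pass the test in ILC3-like cells. The calls depended on single libraries: without allergy library 2 the adjusted p was 0.094 for Nfkbia, 0.254 for Nfkbid and 0.15 for Tnfaip3, without control library 2 it was 0.169 for Nfkbid and 0.069 for Tnfaip3, and Rel lost its call with any of the 6 libraries left out (adjusted p 0.0652 to 0.325). In a fit without the run date, the 4 adjusted p-values were 0.0832 to 0.192. Over all libraries, 58.3% of ILC3-like cells sat at the lowest marker count that the gate accepts. With a stricter gate Rel was at -0.69 (adjusted p = 0.699) and Nfkbid at -0.89 (adjusted p = 0.168). Mast cell markers in these sums were at 363 to 409.6 CPM in controls, with 8 of 9 at 0, and at 349 to 385 CPM in allergy, with 0 to 3 at 0. The heat shock gene Hspa1a was at 2.26 to 46.6 CPM in control and 66.0 to 506 CPM in allergy ILC3-like sums (3.48, adjusted p = 1.07e-06). Igha (1.00, adjusted p = 0.00165) and Malat1 (0.16, adjusted p = 0.0307) were also higher in allergy. The part of these genes in the falls was not tested.

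The allergy effects in ILC2-like and ILC3-like cells were compared directly, as an interaction over the 12 sums with the library as a block, a comparison added after seeing the data. Of 10 members, 4 differed, all with the more positive effect in ILC2-like cells, where 4.52% of 5359 genes differed, 3.64% in that direction. The difference in log2 effect was 1.62 ± 0.18 for Nfkbiz (adjusted p = 1.24e-07), 2.60 ± 0.42 for Rel (adjusted p = 6.19e-05), 1.34 ± 0.22 for Nfkb1 (adjusted p = 0.000112) and 0.47 ± 0.12 for Nfkbia (adjusted p = 0.0162). Nfkbia lost the call without allergy library 2 (0.44, adjusted p = 0.0917), control library 2 (0.52, adjusted p = 0.0587) or control library 3 (0.32, adjusted p = 0.129). Tnfaip3, which fell in both classes, was not among the 4.

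In LP NK or ILC1-like cells, which are cytotoxic or interferon-γ-producing innate lymphocytes, Nfkbia and Nfkbid fell, 2 of 7 members tested, where 3.22% of 1613 genes changed and 1.86% fell. Nfkbid read 204, 428 and 188 CPM in controls and 119.9, 58.9 and 40.3 CPM in allergy, without overlap (-1.76 ± 0.36, adjusted p = 0.00154). Nfkbia read 1209, 2402 and 1084 CPM in controls and 1184, 989 and 655 CPM in allergy, with overlap (-0.67 ± 0.19, adjusted p = 0.036). Control library 2 was the highest for both genes. Without it Nfkbid was at -1.39 (adjusted p = 0.219) and Nfkbia at -0.33 (adjusted p = 0.663). Nfkbia also lost its call without allergy library 2 (adjusted p = 0.0783), allergy library 3 (adjusted p = 0.0879) or control library 3 (adjusted p = 0.0866). With DESeq2 the adjusted p was 0.102 for Nfkbid and 0.563 for Nfkbia. Nfkbiz was at -0.94 ± 0.29 (adjusted p = 0.0531).

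The allergy effect in ILC2-like cells exceeded that in NK or ILC1-like cells for 3 of 9 members, where 2.63% of 3345 genes differed, 2.09% in that direction. These were Nfkbiz (1.96 ± 0.32, adjusted p = 2.68e-05), Rel (2.00 ± 0.52, adjusted p = 0.0203) and Nfkbid (1.73 ± 0.46, adjusted p = 0.023). Nfkbiz kept the call with each library left out and with DESeq2. With DESeq2, Rel had an adjusted p of 0.732 and Nfkbid of 0.581. Rel lost the call without allergy library 3 (adjusted p = 0.199) or control library 3 (adjusted p = 0.298). Nfkbid lost it without allergy library 2 (adjusted p = 0.0762), allergy library 3 (adjusted p = 0.254), control library 2 (adjusted p = 0.285) or control library 3 (adjusted p = 0.0634).

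Among LP myeloid classes, cDC1-like cells, the DCs that cross-present antigen, changed in Nfkbia and Birc3, 2 of 8 members tested, where 2.37% of 4848 genes changed. Both rose, as did 1.26% of genes. Nfkbia read 111, 213 and 87.5 CPM in controls and 731, 467 and 305 CPM in allergy. Every allergy library was above every control, by 3.59-fold (1.84 ± 0.19, adjusted p = 2.01e-05), and no library left out ended the call. The IgDLow pair read 103 and 244 CPM in the same order. Birc3 read 17.6, 29.8 and 23.9 CPM in controls and 67.2, 60.5 and 39.4 CPM in allergy, without overlap (1.14 ± 0.28, adjusted p = 0.0327). It lost the call without allergy library 1 (adjusted p = 0.161), allergy library 2 (adjusted p = 0.0994), control library 1 (adjusted p = 0.192) or control library 2 (adjusted p = 0.0659). Hspa1a was at 44.7 to 52.7 CPM in control and 212 to 426 CPM in allergy cDC1-like sums, and summed mast cell markers were at 20.9 to 29.8 CPM, with 7 to 8 of 9 at 0, and at 78.6 to 89.0 CPM, with 2 to 3 at 0. Their part was not tested.

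Mast-like cells were few in controls (11 to 18 per library) and many in allergy (159 to 271). Nfkbid and Nfkbiz rose in them, 2 of 10 members tested, where 3.86% of 4301 genes changed and 2.95% rose. Nfkbiz read 450.3, 306 and 351 CPM in controls and 834, 888 and 494 CPM in allergy (1.2 ± 0.26, adjusted p = 0.00794). Nfkbid read 414, 139 and 421 CPM in controls and 747, 729.7 and 435 CPM in allergy (1.13 ± 0.30, adjusted p = 0.0353). No allergy library fell within the control range for either gene. Nfkbiz lost the call without allergy library 1 (adjusted p = 0.11) or 2 (adjusted p = 0.185), and Nfkbid without allergy library 1 (adjusted p = 0.288), allergy library 2 (adjusted p = 0.352), control library 1 (adjusted p = 0.129) or control library 2 (adjusted p = 0.153). In these cells 7 of 9 mast cell markers were themselves higher in allergy.

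No member was called in LP plasma-like, pDC-like, macrophage-like or cDC2-like cells by edgeR, which called 2.63%, 2.39%, 1.65% and 0.592% of genes. At an unadjusted p under 0.05, the counts of members were 1, 2, 1 and 1, and the share of all genes at that threshold was not counted. DESeq2 called none either, but it gave an adjusted p to only 4, 1, 6 and 8 of the 10 members. In cDC2-like cells Nfkbia read 1030.4, 1712 and 806 CPM in controls and 2251, 2258 and 1618 CPM in allergy (0.80 ± 0.19, adjusted p = 0.0969). Allergy library 3 lay within the control range. Over all libraries, 75.0% of cDC2-like cells sat at the lowest marker count that the gate accepts. Over the 9 LP classes, 14 of 80 member tests passed, 7 in each direction.

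**Figure D3:**
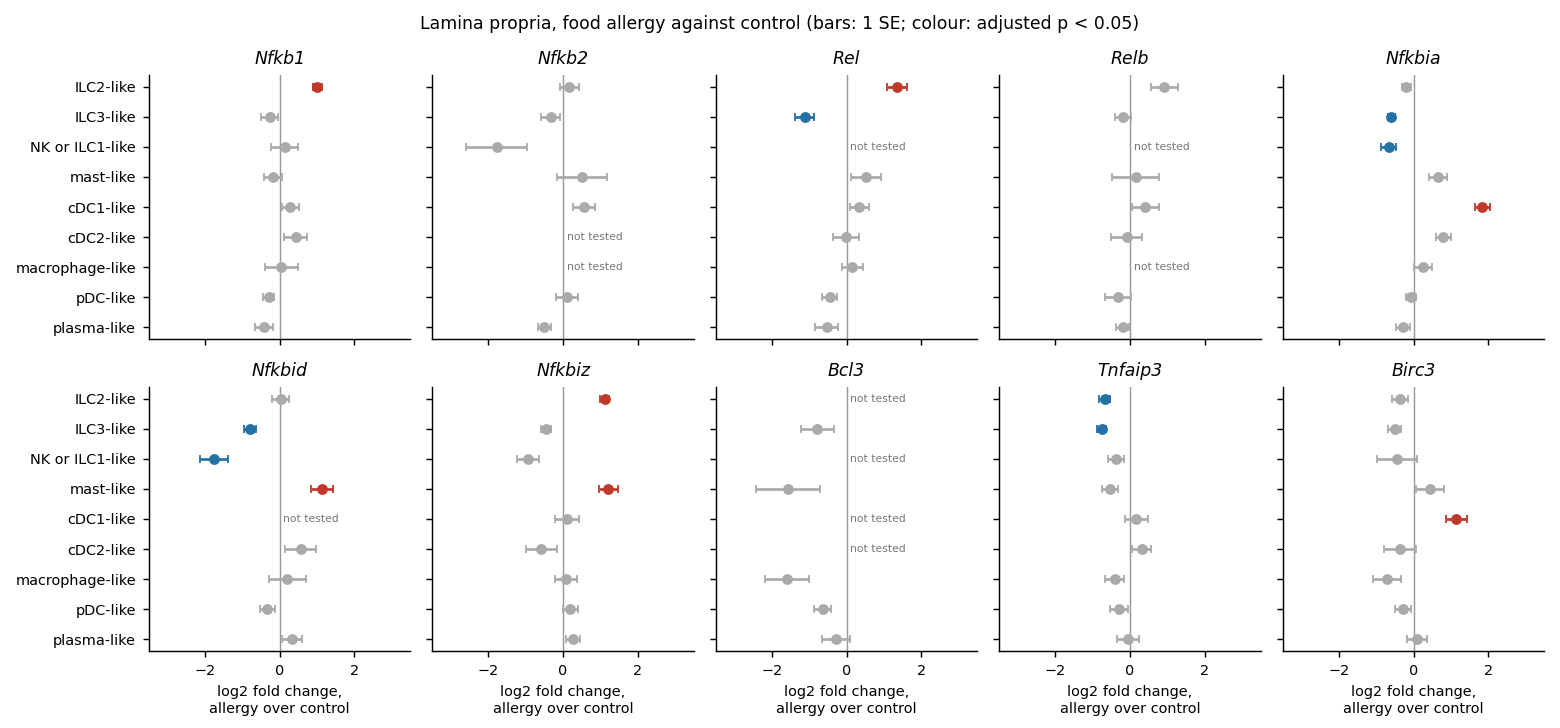
Log2 fold change of each member, food allergy over control, in the 9 fitted lamina propria classes, with bars of 1 SE and colour where the adjusted p was under 0.05. Of the 14 coloured points, 7 lie right of 0: Nfkb1, Rel and Nfkbiz in ILC2-like, Nfkbia and Birc3 in cDC1-like, and Nfkbid and Nfkbiz in mast-like cells. The other 7 lie left of 0. They are Tnfaip3 in ILC2-like, Nfkbia, Nfkbid, Rel and Tnfaip3 in ILC3-like, and Nfkbia and Nfkbid in NK or ILC1-like cells.

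In PP, libraries of a run date were summed, and control and allergy sums were compared with the run date as a term. Of the 8 classes fitted in this way, NK or ILC1-like cells alone had a called member. In PP NK or ILC1-like cells, on the 3 run dates with enough cells in both conditions, 3 of 10 members fell, where 0.775% of 3615 genes changed and 0.664% fell. All 3 are IκB-family genes: Nfkbia, Nfkbid and Nfkbiz.

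Nfkbia read 986, 2719 and 1129 CPM in control sums of run dates 1, 4 and 5, and 275, 1020.0 and 808 CPM in allergy sums (-1.09 ± 0.21, adjusted p = 0.0163). Nfkbid read 131, 363 and 215 CPM in controls and 0, 85.6 and 90.1 CPM in allergy (-1.62 ± 0.25, adjusted p = 0.00496). Nfkbiz read 122, 782 and 282 CPM in controls and 0, 249 and 148 CPM in allergy (-1.33 ± 0.23, adjusted p = 0.0107). Each gene was lower in allergy on each of the 3 dates, while the pooled ranges of Nfkbia and Nfkbiz overlapped because the dates differed. The allergy sum of date 1 held 15 cells. Without run date 4, the adjusted p was 0.217 for Nfkbia and 0.241 for Nfkbiz, and without a run date term it was 1 for all 3 genes. DESeq2 called Nfkbia and Nfkbid, with an adjusted p of 0.0506 for Nfkbiz. Tnfaip3 was lower in allergy on each date as well, at 178, 373 and 429.6 CPM in controls and 0, 290.4 and 351 CPM in allergy, but did not pass the test.

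No member was called in the other 7 PP classes by edgeR or by DESeq2, which gave an adjusted p to 8 of the members in ILC3-like cells and to all 10 in the other classes. The share of genes called by edgeR there was 0.687% in ILC3-like, 0.1% in CD4 T-like, 0.027% in CD8 T-like, 0.0505% in regulatory T-like, 0.0839% in B-like, 0.0689% in germinal centre B-like and 0.415% in pDC-like cells. At an unadjusted p under 0.05, there were 7 members in ILC3-like, 2 in CD8 T-like and 1 each in B-like, CD4 T-like and pDC-like cells. There were 0 in regulatory T-like and germinal centre B-like cells. The share of all genes at that unadjusted threshold was not counted, so these counts have no background. In PP ILC3-like cells, Nfkb1 read 174, 236, 233, 420.2 and 295 CPM in controls of dates 1 to 5, and 184, 159.7, 182, 172 and 196 CPM in allergy. It was lower in allergy on 4 of the 5 dates. Nfkb1 was not called over all dates, but was without run date 1 (-0.88, adjusted p = 0.00162), 2 (-0.80, adjusted p = 0.00935) or 3 (-0.90, adjusted p = 0.00295). It was also called with no filter on low counts (-0.78, adjusted p = 0.0192) and with the stricter gate (-0.86, adjusted p = 0.00168). That gate called Nfkbia (-0.62, adjusted p = 1.11e-05) and Nfkbiz (-0.59, adjusted p = 0.0322) too. Rel was called without run date 1, 2 or 3 (adjusted p 0.0167 to 0.034).

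PP ILC2-like cells were frequent enough in both conditions only on run dates 4 and 5, and were compared over 3 control and 3 allergy libraries, a comparison added after seeing the data. Rel rose, 1 of 9 members tested, where 2.26% of 3850 genes changed and 1.45% rose. It read 127, 117 and 80.2 CPM in controls and 219, 317 and 301 CPM in allergy. All allergy libraries were above all controls, by 2.57-fold (1.36 ± 0.22, adjusted p = 0.00107), and the highest adjusted p with a library left out was 0.0143. Nfkb1 read 991, 759 and 722 CPM in controls and 864, 1213 and 1288 CPM in allergy, with overlap (0.46 ± 0.16, adjusted p = 0.217). It passed without allergy library 8 (0.81, adjusted p = 3.03e-05) or without control library 8 (adjusted p = 0.000108). Nfkbiz read 906, 580.2 and 561 CPM in controls and 717, 949 and 772 CPM in allergy (0.29 ± 0.17, adjusted p = 0.59). Tnfaip3 read 406, 599.7 and 561 CPM in controls and 383, 439 and 474 CPM in allergy (-0.25 ± 0.15, adjusted p = 0.592). Nfkbiz and Tnfaip3 therefore had overlapping groups in PP, where they did not overlap in LP; the difference between the tissues was not tested. Fos was lower (-1.23, adjusted p = 3.67e-06) and Hspa1a higher (1.68, adjusted p = 0.0138) in these allergy libraries too. The plasma cell genes Jchain (3.47, adjusted p = 0.000356) and Igha (3.30, adjusted p = 0.000945) were also higher. The 8 plasma cell markers summed to 179 to 588 CPM in control and 209 to 12966 CPM in allergy ILC2-like libraries, and the part of these genes was not tested.

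Mature DC-like cells were compared with cDC2-like cells, a main class of antigen-presenting DCs, in the 4 LP nonTB libraries that held at least 10 cells of each (53 and 101 cells). Over all libraries, 75.0% of cDC2-like and 19.6% of mature DC-like cells sat at the lowest marker count that their gate accepts. The alternative-pathway pair Relb and Nfkb2 and the c-Rel gene were higher in mature DC-like cells and Nfkbiz was lower, 4 of 9 members tested, where 22.9% of 1824 genes differed (14% higher and 8.88% lower). Relb read 75.6, 58.8 and 105 CPM in cDC2-like cells of control libraries 1 to 3 and 46.9 CPM in those of allergy library 1, and 538, 528, 519 and 727 CPM in mature DC-like cells. Rel read 137, 260.2, 229 and 291 CPM in cDC2-like and 521, 516, 686 and 529 CPM in mature DC-like cells. Nfkb2 read 68.7, 42.0, 45.0 and 65.6 CPM in cDC2-like and 235, 180.0, 114 and 154 CPM in mature DC-like cells. None of these 3 genes overlapped between the classes. The differences were 3.02 ± 0.28 (8.12-fold, adjusted p = 1.29e-06) for Relb, 1.46 ± 0.24 (2.75-fold, adjusted p = 0.000455) for Rel and 1.71 ± 0.36 (3.27-fold, adjusted p = 0.00283) for Nfkb2.

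Nfkbiz read 165, 629.5, 259 and 244 CPM in cDC2-like and 151, 300.01, 96.8 and 44.1 CPM in mature DC-like cells, lower within each library though with overlap across them (-0.99 ± 0.31, adjusted p = 0.0312). It lost the call without allergy library 1 (-0.75, adjusted p = 0.111), control library 2 (adjusted p = 0.119) or control library 3 (adjusted p = 0.124), and with DESeq2 (adjusted p = 0.163). The canonical subunit Nfkb1 was at 0.00 ± 0.36 and the inhibitor Nfkbia at 0.04 ± 0.16, neither past the test. Among the pathway's kinases and adaptors, Map3k14, which encodes NIK, was 2.39 ± 0.40 higher (adjusted p = 0.000511), and Traf1 1.60 ± 0.23 higher. Cd40, a TNF-family receptor that feeds the alternative pathway, was 2.57 ± 0.46 higher. The inhibitors Birc2 (2.57 ± 0.54) and Nfkbib (1.26 ± 0.35) were higher and Tnip3 (-1.61 ± 0.34) was lower. The nuclear RNA Malat1 was 1.83 ± 0.18 higher in mature DC-like sums.

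**Figure D4:**
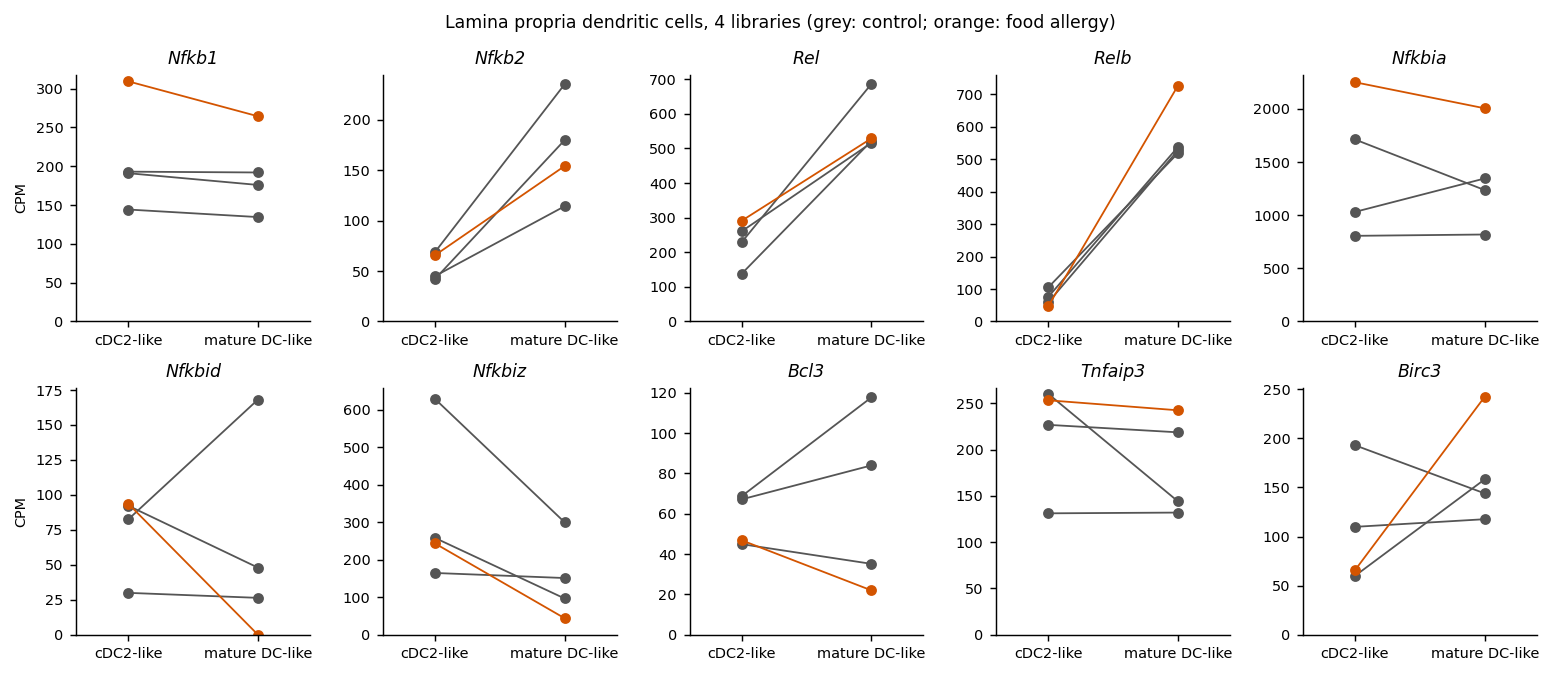
Level of members in CPM in cDC2-like and mature DC-like cells of 4 lamina propria libraries, with 1 point per library (grey for control, orange for food allergy) and lines joining the classes of a library. Relb, Rel and Nfkb2 lie higher in mature DC-like cells in all 4 libraries, and Nfkbiz lies lower in each.

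In the cultured ILC2s, Nfkbiz, Nfkbia and Bcl3 were higher in every IL-25 library than in every library without IL-25, and Tnfaip3 was higher in every CGRP library than in every library without CGRP. How many of all genes were separated in these ways was not counted, so the separation is not shown to be particular to these members. In bulk values, fewer cells of a type and less RNA per cell cannot be told apart. The contrasts with base medium share the same 3 base libraries. Per kb of transcript in base medium, Nfkbia had the highest level at 86.6 ± 16.6 CPM per kb (mean ± SD, n = 3), followed by Nfkbiz at 17.9 ± 1.10, Nfkb2 at 14.5 ± 1.47 and Nfkb1 at 9.65 ± 0.644. Relb (8.19 ± 3.21), Birc3 (7.54 ± 0.686), Tnfaip3 (6.66 ± 1.25), Nfkbid (3.04 ± 1.48) and Bcl3 (2.09 ± 0.47) were lower. The lowest was Rel at 0.767 ± 0.176 CPM per kb.

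Nfkbiz read 93.8, 83.7 and 92.4 CPM in base medium and 182, 180.4 and 185 CPM with IL-25. It read 88.0, 72.7, 109 and 84.9 CPM with CGRP and 187, 182 and 232 CPM with both. Every library with IL-25 was above every library without it. With CGRP present, Nfkbiz was 2.26-fold higher with IL-25 (1.18 ± 0.22, adjusted p = 0.0237). It was the 1 member called of 10, where 0.113% of 12355 genes changed and 0.105% rose. That call was lost without CGRP library 1 (adjusted p = 0.103), CGRP library 4 (0.0967), IL25_CGRP library 1 (0.0812), library 2 (0.0509) or library 3 (0.354). Without CGRP, the difference was 1.02 ± 0.24 (adjusted p = 0.197), and no member was called by edgeR, where 0.0728% of genes changed. At an unadjusted p under 0.05 there were 3 members and 476 of 12355 genes. DESeq2 called 1 member there, Nfkbiz (0.99, adjusted p = 0.00151).

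Averaged over both backgrounds, a contrast added after seeing the data, Nfkbiz rose 2.14-fold with IL-25 (1.10 ± 0.16, adjusted p = 0.000913) and Bcl3 2.71-fold (1.44 ± 0.28, adjusted p = 0.0197). These were 2 of 10 members, where 0.251% of genes changed and 0.235% rose. Bcl3 read 5.62, 6.02 and 3.85 CPM in base medium, 14.7, 16.1 and 13.1 CPM with IL-25, 6.17, 4.67, 2.32 and 3.10 CPM with CGRP and 6.74, 13.2 and 11.9 CPM with both. All 6 libraries with IL-25 were above the 7 without it. Bcl3 lost the averaged call in 8 of the 13 fits that left out a library (adjusted p 0.0501 to 0.12): base libraries 1 and 3, IL25 libraries 1, 2 and 3, CGRP library 4, and IL25_CGRP libraries 2 and 3. Nfkbiz kept it in all 13.

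Nfkbia read 170.1, 122 and 126 CPM in base medium, 225, 324 and 212 CPM with IL-25, 71.2, 171, 113 and 164 CPM with CGRP and 389, 187 and 258 CPM with both. The lowest IL-25 library, at 187 CPM, was above the highest library without it. Averaged over both backgrounds, the change was 0.98 ± 0.22 with an adjusted p of 0.062, which did not pass the test. DESeq2 gave an adjusted p of 0.00517. Nfkb1 averaged 116 ± 7.77 CPM in base medium (n = 3) and 165 ± 49.8 CPM with IL-25 (n = 3), and Nfkb2 66.6 ± 6.73 and 85.8 ± 10.3 CPM. Birc3 averaged 37.8 ± 3.44 and 56.0 ± 8.84 CPM in the same groups. For these 3 genes the IL-25 libraries lay above the base libraries, but libraries with both agents overlapped those with CGRP alone, and no test passed.

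Tnfaip3 read 58.2, 45.6 and 40.6 CPM in base medium and 41.6, 39.9 and 47.6 CPM with IL-25. With CGRP it read 75.6, 87.3, 79.5 and 84.6 CPM, and with both agents 61.0, 126 and 66.9 CPM. The 7 CGRP libraries were all above the 6 others. Averaged over both backgrounds, Tnfaip3 rose 1.82-fold with CGRP (0.87 ± 0.19, adjusted p = 0.00747), 1 of 10 members, where 5.33% of genes changed and 3.12% rose. The call held with each library left out (highest adjusted p 0.0268). In base medium alone the difference was 0.76 ± 0.26 (adjusted p = 0.162), with no member called by edgeR or DESeq2 and 1.49% of genes changed. In the presence of IL-25 it was 0.97 ± 0.28 (adjusted p = 0.116), with no member called by edgeR and 0.631% of genes changed. DESeq2 called 1 member with IL-25 present, Tnfaip3 (0.99, adjusted p = 0.0201). At an unadjusted p under 0.05 there was 1 member in each comparison, beside 1555 and 1391 of 12355 genes.

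Rel averaged 5.73 ± 1.32 CPM in base medium (n = 3), 9.78 ± 2.80 CPM with IL-25 (n = 3), 9.44 ± 4.78 CPM with CGRP (n = 4) and 14.7 ± 3.44 CPM with both (n = 3). The libraries with both agents, at 10.8 to 17.3 CPM, lay above those in base medium, at 4.33 to 6.94 CPM, while each pair of groups that was tested overlapped. Relb ranged from 12.8 to 58.8 CPM and Nfkbid from 3.17 to 11.5 CPM over the 13 libraries, with no order by treatment. The interaction of IL-25 and CGRP had 0 members and 0 genes of 12355 called by edgeR, and 0 members by DESeq2. At an unadjusted p under 0.05 it had 0 members and 532 genes. The median log2 change over the 10 members was 0.54 for IL-25 in base medium and 0.43 for IL-25 with CGRP, against 0.01 and -0.03 over all genes. For CGRP it was 0.02 in base medium and 0.06 with IL-25, against 0.00 and -0.01.

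**Figure D5:**
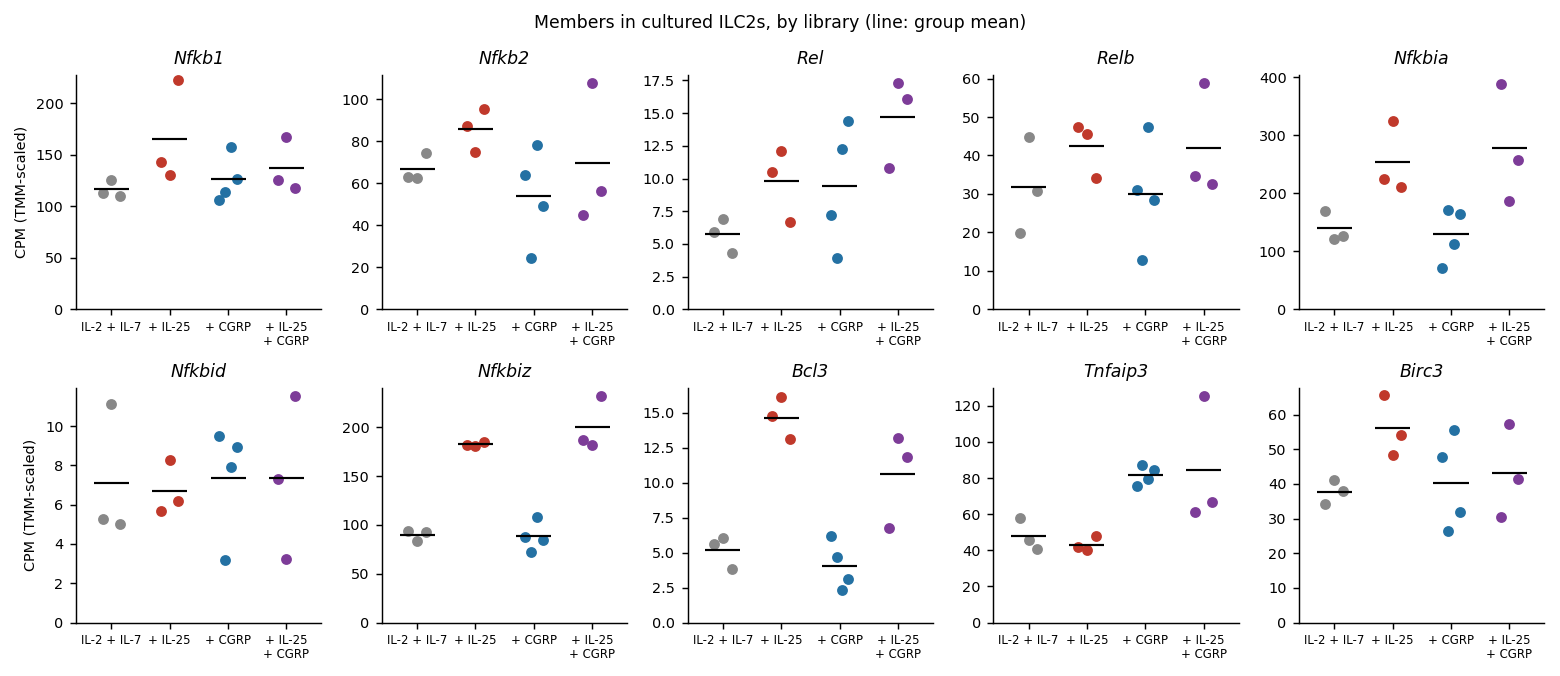
Level of each member in CPM in the 13 libraries of cultured ILC2s, by treatment, with 1 point per library and a line at the group mean. Nfkbiz, Nfkbia and Bcl3 lie higher in both IL-25 groups, and Tnfaip3 lies higher in both CGRP groups.

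Other pathway genes in the cultures moved in small numbers. Of 26 target genes tested, 2 rose with IL-25 in base medium, Csf2 (1.85 ± 0.36, adjusted p = 0.0445) and Ptgs2 (2.59 ± 0.50, adjusted p = 0.0445). Ptgs2 stood at 1.76 ± 1.08 CPM in base medium (n = 3), 10.6 ± 0.911 CPM with IL-25 (n = 3), 2.51 ± 0.617 CPM with CGRP (n = 4) and 15.8 ± 6.91 CPM with both (n = 3). With CGRP in base medium, 2 of 26 targets rose, Tnfrsf9 (1.94 ± 0.28) and Plaur (1.92 ± 0.47). Tnfrsf9 stood at 204 ± 74.9 CPM in base medium (n = 3) and 786 ± 90.5 CPM with CGRP (n = 4). The IL-25 receptor gene Il17rb rose with CGRP in the presence of IL-25 (1.07 ± 0.24, adjusted p = 0.0304). No kinase or adaptor (24 tested) and no inhibitor outside the 10 members (15 tested) passed the test in either comparison with base medium. The genes whose log2 CPM followed Nfkbiz most closely over the 13 libraries were Tph1 (Pearson r 0.936), Pim2 (0.904) and Il9 (0.900); the libraries share their depth, sort and treatments.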

How the data were processed

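Levels in the bulk libraries are expected counts that the authors deposited as one table, made from Smart-seq2 libraries; in single cells they are UMI counts that the authors deposited as a filtered matrix with a table of cells. The submitters' processing notes name bcl2fastq, Bowtie2, RSEM, Cell Ranger and mm10; versions are not given in the sources used here. Before testing, each expected count was rounded to a whole number. Genes were tested with edgeR 4.0.16 (R 4.3.3): edgeR's quasi-likelihood test with TMM scaling, filterByExpr and Benjamini-Hochberg adjustment over all genes tested, called at an adjusted p under 0.05. DESeq2 1.42.0 was an alternative. The tests were checked on simulated data.

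Cells were assigned by marker gates, without clustering or a doublet caller. ILC2-like cells had at least 3 of 8 ILC2 markers and lacked the T cell and ILC3 genes that the gate excludes. Those genes are not all markers of these cell types: ILC2-like cells held a median of 1 marker counted by the ILC3-like gate. Other classes had like rules, and 359 cells in more than 1 gate were left out. The gates are not the authors' annotation. UMIs were summed per class and LP library, or per PP run date and condition (at least 10 cells a sum and 3 run dates with both conditions), with run date as a term. LP control and allergy libraries 1 and 2 share a run date, and library 3 of each the other. One PP allergy library, replicate 1, was not analysed here.

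The members and lists were chosen with earlier results of these data known. All 10 members are reported; of each pathway list, at most 6 genes past the threshold with the smallest adjusted p could be named. Averaged bulk contrasts, class interactions and the PP ILC2 comparison were added after seeing the data. Counting intervals are 95% Poisson limits and cover counting error only.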

Additional observations from a re-analysis of the deposited data

Results flagged for a closer look

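Among 70 groups of 4 or 5 values of a member (bulk CGRP libraries, or PP run dates within a class and condition), 7 had a value standing far from the others, where chance gives about 5%. In each, the gap to the nearest value is given as a share of the group's range. In the control CD8 T-like sum of run date 5, which holds only 16 cells, Nfkbiz stood at 189 CPM against 21.1 to 31.5 CPM on the other dates (gap 0.938), Nfkb1 at 189 CPM against 52.2 to 64.0 CPM (0.914), Nfkb2 at 0 CPM against 18.4 to 21.8 CPM (0.844) and Birc3 at 126 CPM against 20.4 to 38.1 CPM (0.833). The other 3 sums hold 160 to 941 cells, and the counts behind the date 5 values are 0 to 12 UMIs. In B-like sums of run date 4, Nfkbiz stood apart in both conditions, at 246 CPM against 22 to 54.9 CPM in controls (gap 0.853) and at 204 CPM against 6.21 to 52.5 CPM in allergy (0.766). Nfkbid in allergy B-like sums stood at 182 CPM on run date 5 against 62.1 to 85.1 CPM (0.807).

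The effect of allergy differed between LP classes by a direct test for 4 members between ILC2-like and ILC3-like cells: by 1.62 on the log2 scale for Nfkbiz, 2.60 for Rel, 1.34 for Nfkb1 and 0.47 for Nfkbia. Between ILC2-like and NK or ILC1-like cells it differed by 1.96 for Nfkbiz, 2.00 for Rel and 1.73 for Nfkbid.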

How the results depend on the processing

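Counts of members called moved as follows. In bulk, IL-25 against base medium went from 0 to 1 and CGRP with IL-25 against IL-25 from 0 to 1 with DESeq2. IL-25 with CGRP against CGRP went from 1 to 2 with no filter on low counts, to 0 with the replicate number as a block, and to 0 to 1 with a library left out. IL-25 averaged over CGRP went from 2 to between 1 and 3 with a library left out. In LP, the 14 calls became 8 with DESeq2, 4 without the run date term and 7 to 17 with a library left out. In PP, the 3 calls became 0 without the run date term, 6 with a stricter gate and 1 to 8 with a run date left out. The ILC2 minus NK or ILC1 difference went from 3 to 1 with DESeq2 and to 1 to 5 with a library left out. PP ILC2 went from 1 to between 1 and 3. Tnfaip3 in LP plasma-like cells changed sign and passed the test without allergy library 3 (0.57) or control library 3 (0.57), and ranged from -0.29 to 0.57 with a library left out. Over members and settings, 2882 values kept their side of the threshold, 84 lost and 52 gained a call with the same sign, and 2 changed sign. Direction was compared only where the main or the alternative fit gave a call. Replicate numbers did not pair the bulk libraries: deviations of same-numbered libraries correlated at -0.14 to 0.13, and the block changed no other count of member calls by over 1.5 times. The stricter gate was not run for the comparison of mature DC-like with cDC2-like cells. Over all libraries it kept 237 of 280 mature DC-like but 56 of 208 cDC2-like cells. LP nonTB sums of 39 to 70 cells limit what is detectable in NK or ILC1-like cells, as do control sums of 11 to 18 cells in mast-like cells.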
